A study of Danio rerio with 8 samples.

Results

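Whole zebrafish (Danio rerio) embryos cultured for 72 h in high glucose or in high salt were set together against embryos cultured in control medium. The treated side held 5 libraries, 3 from high glucose and 2 from high salt, and the control side held 3, which made up all 8 libraries of the series. Each treatment had equal weight, so that the fold changes below are the mean of glucose over control and salt over control, as log2 values. Of 20562 tested genes, 1295 had every treated library on the same side of every control. The sources used here do not give the strain, the medium, the glucose and salt concentrations or the number of embryos per sample, and both treatments share the same 3 controls. Nothing in the labels ties the samples to separate clutches or dishes. The p-values thus cover only how much these samples differ, and that spread may be technical.

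The comparison asks which transcripts differ from control in the same direction under both media. Raised salt draws water out of cells, and animal cells answer by taking up or making small organic osmolytes such as taurine, myo-inositol and neutral amino acids. Raised glucose feeds glycolysis and the hexosamine pathway, whose end product is attached to many proteins as O-GlcNAc, and in mammals it induces the thioredoxin-binding gene TXNIP. Zebrafish embryos live on yolk while their brain, eyes, liver and gut form.

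Libraries held 14.65 to 17.32 M counts, at which 3 counts equal 0.171 to 0.226 CPM (counts scaled to the same TMM-adjusted library total). Their column names carry a suffix, 1m, 2f or 2m, whose meaning was not stated. Control 1m stood apart from its group: by chi-square per degree of freedom it differed from control 2f and 2m by 74.2 and 70.7, whereas 2f and 2m differed by 16.4. Salt 2m had the lowest scaling factor (0.891) and the lowest mitochondrially encoded share (2.23%). The 10 most abundant genes took 7.13% ± 0.473 of the counts in treated libraries (SD, n = 5) and 8.51% ± 0.0314 in controls (n = 3). Every treated library lay below every control, and the difference of -1.37 percentage points had p = 0.0179 by a two-sided exact permutation test, the smallest p that 56 regroupings allow. That test takes all libraries as exchangeable and ignores the suffix. The gene ptgdsb, described below, was within the 10 most abundant genes of every control, so the share is not separate from its lower level. Mitochondrially encoded genes took 3.61% ± 0.895 in treated libraries and 4.92% ± 0.512 in controls, with overlapping values (p = 0.0893, same exact test).

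By the quasi-likelihood test of edgeR, adjusted by Benjamini-Hochberg at a threshold of 0.05, the joint contrast called 27 genes, which was 0.131% of those tested. Before adjustment, 3425 genes (16.7%) had a p below 0.05. Of the 27 called genes, 23 were lower in treated embryos (0.112% of genes) and 4 were higher (0.0195%), and all 27 were protein coding. They were sorted by how alike their glucose and salt changes were. For 8 genes the smaller of the glucose and salt changes was at least 0.5 of the larger, and these are called balanced. All 8 were falls, all 8 had every treated library below every control, and for all 8 the test of glucose against salt missed the threshold (adjusted p = 0.0656 to 0.776). For the other 19 the salt change was the larger, and each of the 19 differed between glucose and salt (adjusted p = 1.88e-04 to 0.0244; 4.95% of all genes differed there). The joint call of those 19 was therefore carried mainly by the 2 salt libraries. In 15 of the 19 the glucose change was smaller than 0.5 on the log2 scale. That the 8 missed the test of glucose against salt and the 19 passed it follows in part from the sorting. It is no further support for separate kinds of gene.

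**Figure D1:**
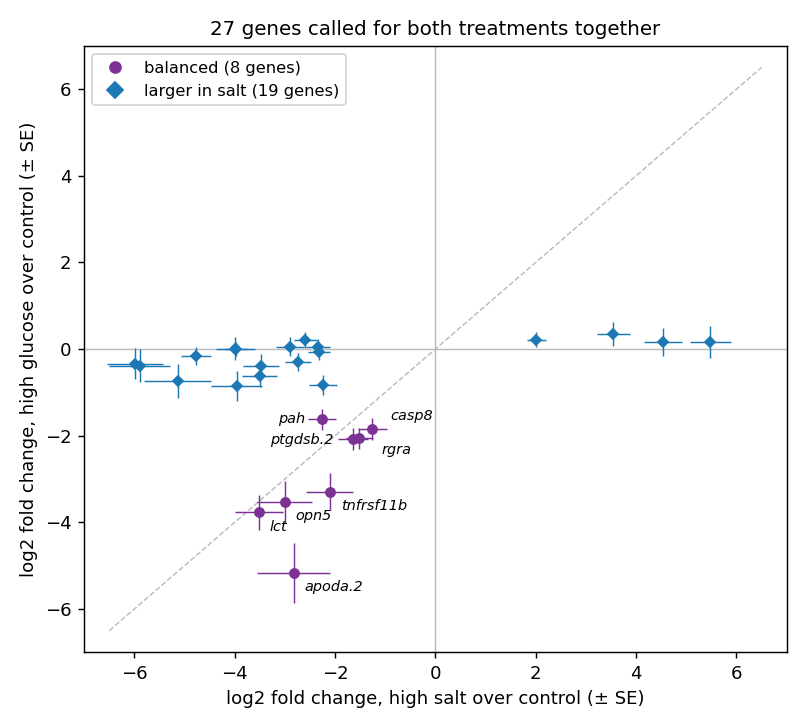
Log2 fold change of high salt over control (x axis) and of high glucose over control (y axis), each ± SE, for the 27 genes called in the joint contrast. The dashed line marks equal changes. The 8 balanced genes (purple circles, named) lie in the lower left, from casp8 to apoda.2. The other 19 (blue diamonds) lie far from 0 in salt and nearer to 0 in glucose. Their largest glucose changes are those of hdhd3 (-0.85) and hectd2 (-0.83). Both axes share the same 3 controls.

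The balanced falls were those of lct, opn5, apoda.2, tnfrsf11b, pah, ptgdsb.2, rgra and casp8. They include enzymes of digestion and amino acid breakdown, lipid-binding lipocalins, non-visual light receptors, a decoy receptor of bone turnover and an initiator of apoptosis. In bulk tissue, fewer cells of a type and less RNA per cell cannot be told apart. Tested alone in the same fit by edgeR's quasi-likelihood test, glucose over control passed for none of the 8 genes (adjusted p = 0.0870 to 0.122). Salt over control missed for apoda.2 (adjusted p = 0.0540) and passed for the others (0.00605 to 0.0403). The calls are thus those of the joint contrast, and none was made for glucose alone.

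The largest separation belonged to lct, on chromosome 9 at 46588054 to 46595324 of GRCz11. In mammals its counterpart is lactase, the disaccharidase of the intestinal brush border. Its levels were 0.970, 1.69 and 1.07 CPM in glucose 1m, 2f and 2m, 2.04 and 0.906 CPM in salt 1m and 2m, and 11.7, 17.3 and 22.1 CPM in control 1m, 2f and 2m. The lowest control stood 4.81-fold above the highest treated library, with 0.5 CPM added to each. The joint log2 fold change was -3.65 ± 0.35 (adjusted p = 0.00819), with -3.77 ± 0.41 for glucose and -3.52 ± 0.48 for salt. A second lactase-type gene lies beside it on the same strand, LCT (1 of 2), at 46569453 to 46582158. It was scarce, at 0.0571, 0.439 and 0.564 CPM in glucose, 0.408 and 0.453 CPM in salt, and 1.69, 2.32 and 2.68 CPM in controls. Again no treated library reached a control, although the change of -2.50 ± 0.57 did not pass (adjusted p = 0.127; 0.0459 with the suffix as a block). How reads shared by near-identical copies were counted was not given, so the values of this pair are uncertain to that extent.

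The enzyme gene pah encodes phenylalanine hydroxylase, which turns phenylalanine into tyrosine and is a liver enzyme in vertebrates. It was at 9.82, 14.5 and 12.2 CPM in glucose, 9.17 and 6.41 CPM in salt, and 33.03, 44.5 and 34.9 CPM in controls. Its fall of -1.94 ± 0.21 (adjusted p = 0.0164) was the 1 of the 8 in which the salt mean lay below the glucose mean (-2.26 ± 0.28 in salt, -1.62 ± 0.24 in glucose; adjusted p = 0.179 for the difference). Of 19 liver genes tested, pah was the 1 member called (0.112% of all genes were called lower). The list's median was -0.02, and 8 members were above 0. Another member, the cytochrome P450 gene cyp2y3, also lay below control in every treated library (-0.49 ± 0.16, not called), which made 2 of the 19 (10.5%, against 3.28% of all genes). The adjacent gene th2 had a joint log2 fold change of -1.59 ± 0.78 and was not called.

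The lipocalins are small secreted carriers of lipids and retinoids. The apolipoprotein D gene apoda.2, on chromosome 2 at 37225004 to 37233532, was at 54.2, 129.4 and 74.9 CPM in glucose, 699.3 and 175.1 CPM in salt, and 5565, 1613 and 2083 CPM in controls. Control 1m stood far above the other controls, and salt 1m far above the other treated libraries, but the groups did not overlap. The joint change was -3.99 ± 0.55 (adjusted p = 0.0335), with -5.16 ± 0.69 for glucose and -2.82 ± 0.73 for salt, and the difference between treatments did not pass (adjusted p = 0.0656). Ranked by count, from the gene with most counts down, it was between 181 (salt 1m) and 3487 (glucose 1m) in treated libraries, and at 8, 51 and 37 in control 1m, 2f and 2m. The gene apoda.1 lies inside apoda.2 on the opposite strand. Without a stated strand setting for the counting, it is not known how reads from the shared stretch were assigned. Reads assigned to apoda.1 numbered 2.51, 9.09 and 10.6 CPM in glucose, 1.43 and 6.41 CPM in salt, and 1.37, 5.68 and 9.598 CPM in controls, with full overlap.

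The prostaglandin D synthase copy ptgdsb.2, on chromosome 24 at 16877092 to 16884954, was at 232.5, 360.9 and 234.4 CPM in glucose, 402.6 and 342.0 CPM in salt, and 1494, 1097 and 894.6 CPM in controls. It fell by 1.86 ± 0.22 on the log2 scale (adjusted p = 0.0220). Lipocalin-type prostaglandin D synthase both makes prostaglandin D2 and carries lipids. The gene ptgdsb overlaps it on the same strand, so reads could have been divided between the copies. With 2277, 3614 and 2824 CPM in glucose, 4238 and 3259 CPM in salt, and 12115, 7454 and 6582 CPM in controls, ptgdsb also lay lower in every treated library. Its joint change of -1.40 ± 0.25 did not pass (adjusted p = 0.0739), and did with the suffix as a block (0.0310). Its rank by count was between 10 and 33 in the 5 treated libraries, and 2, 4 and 4 in the controls. Across the list of lipocalins and apolipoprotein D, 2 of 8 tested members were called, both lower (25%, against 0.112% of all genes), and 0 of 8 had a joint change above 0. Its median was -0.53 (-0.61 in glucose and -0.62 in salt), against -0.02 over all tested genes. This list, like the others, was chosen with earlier results of these data known, and its overlapping copies are not separate. Its shares are thus no further support for a change of the family. No call was made for apodb (-1.04 ± 0.32) or ptgdsa (-0.69 ± 0.32).

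Both light-receptor genes belong to non-visual opsin families. Neuropsin, the product of opn5, is an ultraviolet-sensitive opsin, and in mammals RGR, the counterpart of rgra, is a retinal-binding opsin of the pigment epithelium and Müller glia. The levels of opn5 were 0.685, 0.690 and 0.376 CPM in glucose, 1.22 and 0.453 CPM in salt, and 9.10, 6.35 and 5.06 CPM in controls. Those of rgra were 5.94, 7.02 and 5.26 CPM in glucose, 7.88 and 9.81 CPM in salt, and 29.8, 26.5 and 19.5 CPM in controls. The gap between the groups was 3.23-fold for opn5 and 1.94-fold for rgra, and the changes were -3.27 ± 0.40 and -1.79 ± 0.21 (adjusted p = 0.0220 for each). Over all 16 tested non-visual opsins, with opn5 and rgra among them, changes went both ways, with 9 above 0 and a median of 0.44. Another member, valopa, was also lower in every treated library (-1.54 ± 0.62, not called), which made 3 of the 16 (18.8%, against 3.28% of all genes). The 2 called members were 12.5% of the list, against 0.112% of all genes called lower. The gene opn6a (-2.42 ± 0.60, adjusted p = 0.146) was called lower with the suffix as a block (0.0386). Among 37 visual opsin and phototransduction genes 16 were above 0 (median -0.20).

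The gene tnfrsf11b encodes osteoprotegerin, a decoy receptor that in mammals binds RANK ligand and restrains osteoclasts. It was at 2.28, 5.08 and 1.38 CPM in glucose, 6.32 and 6.94 CPM in salt, and 24.2, 36.2 and 25.2 CPM in controls. Glucose lay below salt in every library, with joint -2.70 ± 0.35 (adjusted p = 0.0270), glucose -3.29 ± 0.43 and salt -2.11 ± 0.47. The difference between treatments did not pass (adjusted p = 0.147), and did with the suffix as a block (0.0194). Cartilage and bone genes as a list did not share the fall, since 22 of 31 were above 0 and tnfrsf11b was the 1 called (0.112% of all genes were called lower).

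The initiator caspase gene casp8 was at 10.50, 10.97 and 10.96 CPM in glucose, 15.8 and 16.5 CPM in salt, and 54.5, 27.5 and 34.3 CPM in controls (-1.55 ± 0.22, adjusted p = 0.0347). The treated libraries of each medium were close to each other, and the controls were spread, with 1m highest. Of 30 tested p53 targets and apoptosis genes, casp8 was the 1 called (0.112% of all genes were called lower). Of the 30, 4 lay below control in all treated libraries (13.3%, against 3.28% of all genes). These were casp8, sesn3, the cell cycle inhibitor gene cdkn1a and gadd45bb. The median level of the whole list did not separate the groups, with salt 2m the highest of the 8 libraries. For cdkn1a the values were 7.82, 8.21 and 7.96 CPM in glucose, 16.78 and 11.998 CPM in salt, and 42.98, 21.1 and 23.0 CPM in controls (-1.44 ± 0.25, adjusted p = 0.0739; 0.0132 with the block). The p53 ligase gene mdm2 did not follow, with -1.06 ± 0.19 in glucose and 0.34 ± 0.21 in salt.

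**Figure D2:**
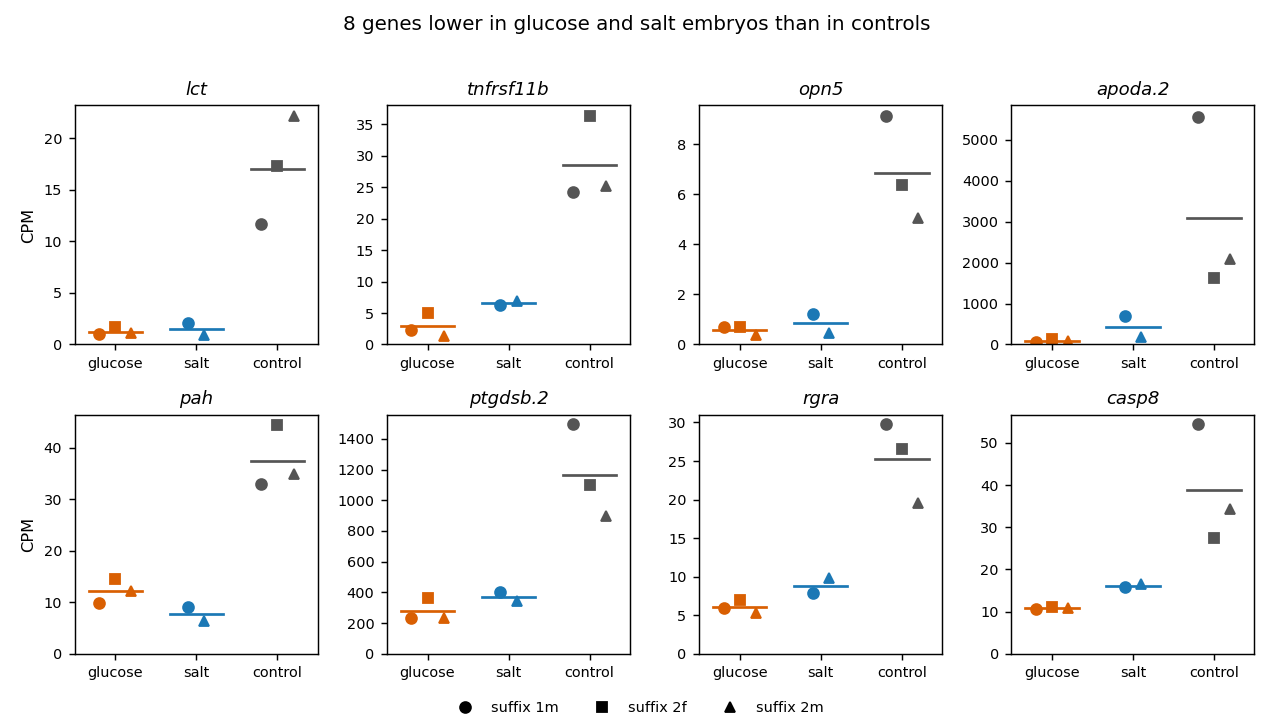
Level (CPM, linear axis from 0, a scale per gene) of the 8 balanced genes in high glucose, high salt and control libraries. Points are libraries, with the suffix given by their shape, and lines are group means. In each panel every control point lies above every treated point, and control 1m is the highest library in 5 of the 8.

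Control 1m was the highest library for 5 of the 8 balanced genes (apoda.2, ptgdsb.2, opn5, rgra and casp8), and its part in their calls was not tested apart from leaving it out. Set against the control of the same suffix, each of the 5 treated libraries was lower for all 8 genes. That follows from the lack of overlap and is no further support, so only the size of the fold is of use. The fold, with 0.5 CPM added, ran from 4.81 to 16.1 for lct, 5.57 to 8.10 for opn5, 7.95 to 102 for apoda.2, 3.45 to 13.7 for tnfrsf11b and 2.78 to 5.12 for pah. It ran from 2.61 to 6.42 for ptgdsb.2, 1.94 to 4.70 for rgra and 2.04 to 4.998 for casp8. The calls depended on single libraries. Without control 2f all 8 missed the threshold (lct at adjusted p = 0.0569). Without control 1m, control 2m, glucose 1m, glucose 2f and glucose 2m, 3, 4, 2, 4 and 3 of the 8 kept their call. Leaving out salt 1m or salt 2m left 1 salt library, so calls in those fits are not counted here. In the fits without 1 control or glucose library, lct and pah lost their calls only without control 2f. The calls of apoda.2, opn5 and casp8 held in none of them. That of ptgdsb.2 held without control 1m, control 2m or glucose 2f, that of tnfrsf11b without glucose 2f or glucose 2m, and that of rgra without control 2m. All 8 genes stayed lower in treated embryos in every one of the 21 alternative fits.

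Of 32 genes beside the 8 on their chromosomes, 2 on each side, 25 were tested. Every treated library lay below every control for 3 of the 25 (3.28% of all genes) and above for 1 (3.02%), eif2s3. The 3 were tspan37, ptgdsb and LCT (1 of 2). Of these, ptgdsb overlaps ptgdsb.2, and LCT (1 of 2) may share reads with lct, so they do not stand apart from the called genes. With the suffix as a block, 3 of the 25 were called: LCT (1 of 2) and ptgdsb lower (1.37% of all genes were) and zfx, beside ptgdsb.2, higher (0.695%).

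The 19 remaining calls hold the salt response as seen through the joint contrast, and they are given here for what glucose did in them. The 4 rises were slc38a2, a transporter gene for neutral amino acids, slc22a16, a transporter gene for organic cations and carnitine, antxr1c of the anthrax toxin receptor family, and si:ch211-153b23.3. For slc38a2 the values were 49.9, 52.5 and 53.2 CPM in glucose, 552.3 and 1593 CPM in salt, and 45.7, 51.7 and 41.5 CPM in controls. The glucose values were thus within or just above the control range, and the change was 0.16 ± 0.32 in glucose and 4.53 ± 0.38 in salt. Of the 4, antxr1c alone had every treated library above every control, by a gap of 1.01-fold. It was at 36.1, 31.4 and 28.8 CPM in glucose, 96.99 and 125.7 CPM in salt, and 26.4, 28.1 and 28.4 CPM in controls.

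Among the 15 falls carried by salt were mgea5, the O-GlcNAcase gene (237.0, 252.1 and 300.0 CPM in glucose, 17.3 and 16.2 CPM in salt, 229.2, 280.6 and 280.4 CPM in controls), and the arrestin-domain genes arrdc3a and arrdc3b. Also lower were slc16a9b and slc16a6b of the monocarboxylate transporter family, the linker histone genes h1fx and h1f0, histh1l, and ino80e, which encodes a subunit of a chromatin remodeller. The rest were ppdpfb, hectd2, gpcpd1, hdhd3, inpp4aa and si:rp71-36a1.3. Of these 15, 3 had every treated library below every control. They were hectd2, which encodes a ubiquitin ligase, with 10.5, 12.7 and 12.1 CPM in glucose, 5.16 and 3.70 CPM in salt and 24.0, 21.3 and 17.6 CPM in controls, slc16a9b, and si:rp71-36a1.3. In hectd2 the glucose change was -0.83 ± 0.22 and the salt change -2.24 ± 0.28. In slc16a9b the gap was 1.06-fold, with 55.9, 55.0 and 60.2 CPM in glucose, 0.272 and 2.04 CPM in salt and 74.8, 77.4 and 63.9 CPM in controls.

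Genes of osmotic and glucose physiology were looked at whatever their value. The taurine transporter gene slc6a6a was at 1.26, 2.63 and 4.76 CPM in glucose, 45.2 and 263.7 CPM in salt and 3.71, 2.87 and 2.44 CPM in controls. Its joint change of 2.81 ± 0.61 did not pass (adjusted p = 0.114) and did with the suffix as a block (0.0325). The myo-inositol transporter gene slc5a3b (2.11 ± 0.53, adjusted p = 0.148), the kinase gene sgk1 (1.23 ± 0.37, adjusted p = 0.187) and pck1 of gluconeogenesis (-1.40 ± 0.50, adjusted p = 0.228) did not pass in either fit. The thioredoxin-binding gene txnipa (-1.11 ± 0.23, adjusted p = 0.101) passed with the block (0.00800), and its glucose change was -0.07 ± 0.26. For slc6a6a, slc5a3b and sgk1, the joint mean includes glucose changes below 0 (-0.06, -0.36 and -0.35).

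Beyond the calls, every treated library lay above every control for 621 genes (3.02% of those tested) and below for 674 (3.28%). Most of the gaps were narrow: the median was 1.06-fold above and 1.08-fold below, and 433 and 385 of the genes had a gap under 1.1-fold. The wide gaps were on the lower side. A gap of at least 1.5-fold was found for 32 genes below and for 1 above, and of at least 2-fold for 10 below and none above. The changes were balanced for 431 of the 674 (63.9%) and 400 of the 621 (64.4%). The rule itself puts both treatments on the same side of control, which favours a balanced change. The share over all tested genes was not counted, so these shares are no sign of a common response. Genes that lay below had fewer counts (median of the mean 9.80 CPM, not scaled by length) than those above (41.8 CPM), with 12.3 CPM over all tested genes. Of noncoding genes most overlapped between the groups, as 205 lincRNA genes and 204 processed transcripts did. Those that did not were mostly on the lower side, with 11 lincRNA genes below and 1 above (5.07% and 0.461% of them) and 19 processed transcripts below and 2 above (8.44% and 0.889%). Protein-coding genes were split nearly evenly, with 639 below and 616 above. At the edge of the rule, the ephrin gene efnb2a had its lowest treated library at 83.12 CPM and its highest control at 83.11 CPM and was counted as above, while sox10, at 24.196 and 24.198 CPM, was not. On the lower side minpp1a, with its highest treated library at 26.29 CPM and its lowest control at 26.33 CPM, was counted, and eif4e3, at 55.48 and 55.47 CPM, was not.

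Among genes with an ordinary symbol and a mean of at least 1 CPM, the 10 widest gaps below belonged to lct, tnfrsf11b, opn5, apoda.2, pah, ptgdsb.2, LCT (1 of 2), lrrc58a, rgra and gda. Of these 7 were called without the suffix block (0.112% of all genes were called lower) and all 10 with it (1.37%). They were picked by the gap in the same values that the test uses, so their calls are no further support. The gene gda, for guanine deaminase, was at 0.514, 0.251 and 0.376 CPM in glucose, 0.543 and 0.528 CPM in salt, and 2.28, 1.46 and 3.49 CPM in controls (-2.39 ± 0.46, adjusted p = 0.0894; 0.0300 with the block). For lrrc58a, of the leucine-rich repeat family, the values were 11.7, 10.5 and 11.2 CPM in glucose, 17.1 and 5.43 CPM in salt, and 64.5, 45.7 and 33.9 CPM in controls (-2.10 ± 0.33, adjusted p = 0.0569; 0.00351 with the block).

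Under the same limits, the 10 widest gaps above were those of eomesa, gucy2c, sim1a, MEGF9 (2 of 2), adgrg6, zic4, nkx2.4b, tbr1b, baiap2b and gucy2f. All 10 missed the threshold of edgeR's quasi-likelihood test without the block (adjusted p = 0.120 to 0.228), and 4 passed it with the block (0.695% of all genes were called higher there). These 10 too were picked by the gap in the values tested. Among them eomesa and tbr1b encode T-box factors of the telencephalon, sim1a and nkx2.4b factors of the hypothalamus, and zic4 a zinc finger factor of the dorsal neural tube. The levels of eomesa were 19.6, 15.4 and 16.6 CPM in glucose, 15.01 and 25.4 CPM in salt, and 5.33, 8.665 and 9.89 CPM in controls. The gap was 1.49-fold and the change 1.23 ± 0.27 (adjusted p = 0.120; 0.0386 with the block). For nkx2.4b they were 9.53, 10.4 and 7.96 CPM in glucose, 10.7 and 11.9 CPM in salt, and 2.99, 5.80 and 5.003 CPM in controls (1.15 ± 0.27, adjusted p = 0.133; 0.0391 with the block). Neither sim1a (1.05 ± 0.24), tbr1b (1.12 ± 0.29) nor zic4 (0.69 ± 0.19) passed in either fit (adjusted p = 0.0535, 0.0519 and 0.0854 with the block). Glucose and salt changes were close to each other in eomesa (1.11 ± 0.29 in glucose and 1.34 ± 0.32 in salt) and zic4 (0.70 ± 0.21 and 0.68 ± 0.23). Control 1m was the lowest library for eomesa, nkx2.4b, tbr1b and zic4.

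With the suffix as a block, 143 genes were called higher (0.695%) and 281 lower (1.37%), and all 27 earlier calls were among them. Of these 44 and 101 were balanced, and 221 of the called genes differed between glucose and salt. Control 1m was the highest library for 214 of the 281 and the lowest for 96 of the 143. Over all tested genes, how often control 1m was highest or lowest, or the treatments differed in this fit, was not counted. A call itself favours a control as the extreme library. Without control 1m the blocked fit called 37 higher and 53 lower, and the 8 balanced genes kept their call. Without salt 2m the blocked fit held 1 salt library, so its calls are not counted here.

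The 12 rises and 12 falls with the largest smaller-of-both change in the blocked fit were chosen by the rule used for the calls, extended after the values had been seen. The rises were adgrg6, which encodes an adhesion receptor needed for Schwann cell myelination, MEGF9 (2 of 2), the sterol acyltransferase gene soat2, atp1b4, eomesa, nkx2.4b, the Rac exchange factor gene TIAM2 (2 of 2), the kinase gene WNK2, the proton pump subunit gene atp6v0a2a, the septin gene sept3, the RNA-binding protein gene mex3b and her8a, of the hairy-related repressors. For adgrg6 the values were 8.16, 11.4 and 8.52 CPM in glucose, 6.66 and 12.6 CPM in salt, and 1.43, 4.58 and 4.77 CPM in controls (1.57 ± 0.31 with the block, adjusted p = 0.0358). The RNA-binding gene mex3b was at 202.9, 179.3 and 176.2 CPM in glucose, 235.2 and 277.9 CPM in salt, and 83.3, 140.2 and 114.3 CPM in controls (1.02 ± 0.19, adjusted p = 0.0321). The repressor family gene her8a was at 56.4, 34.7 and 28.7 CPM in glucose, 66.5 and 58.3 CPM in salt, and 22.9, 24.5 and 22.7 CPM in controls, which were nearly level (1.05 ± 0.20, adjusted p = 0.0331). Control 1m was lowest for 10 of the 12 and salt 2m highest for 9, and their part in these rises was not tested apart from the fits without them.

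**Figure D3:**
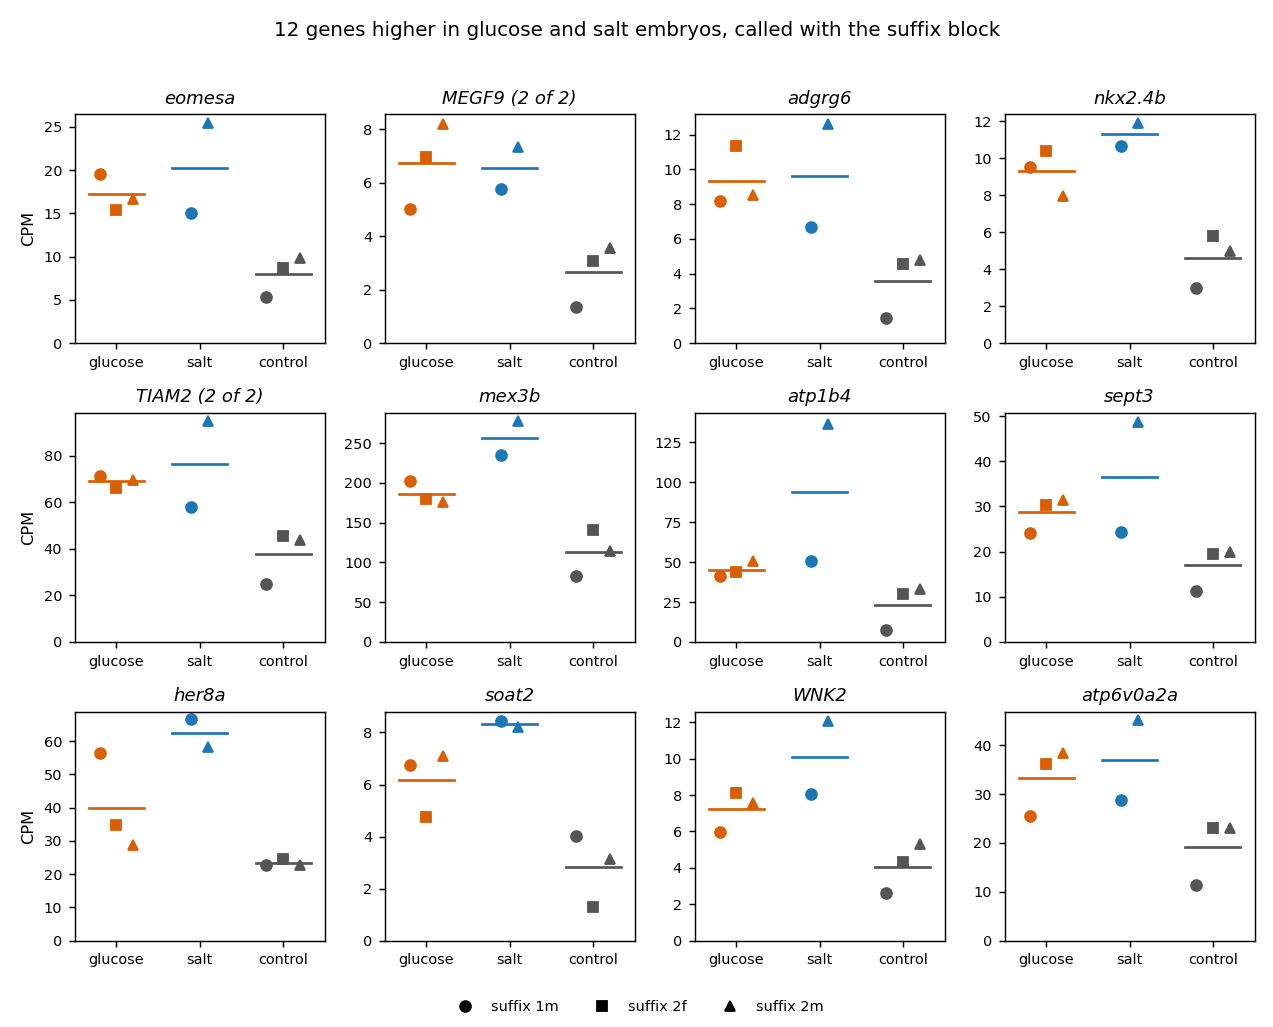
Level (CPM, linear axis from 0, a scale per gene) of the 12 rises named from the fit with the suffix as a block, in high glucose, high salt and control libraries. Points are libraries, with the suffix given by their shape, and lines are group means. Every treated point lies above every control point in each panel, control 1m is lowest in 10 of the 12, and her8a has 3 nearly equal controls.

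The 12 falls were lct, opn5 and apoda.2, called also without the block, and mybpc1 of slow muscle myosin binding, the lysyl oxidase family gene loxl3a, gda, htra1b, LCT (1 of 2), the finTRIM gene ftr01, the efflux transporter family gene abcg2b, lrrc58a and the lens membrane protein family gene lim2.2. Control 1m was the highest library for 8 of the 12. The secreted protease gene htra1b was at 3.14, 4.51 and 7.27 CPM in glucose, 18.2 and 9.21 CPM in salt, and 135.5, 29.0 and 25.0 CPM in controls (-2.73 ± 0.45 with the block, adjusted p = 0.0219). For abcg2b the values were 3.42, 2.38 and 0.251 CPM in glucose, 5.84 and 1.21 CPM in salt, and 23.0, 12.3 and 6.81 CPM in controls (-2.55 ± 0.31 with the block, adjusted p = 0.00590). Without control 1m and salt 2m the change of loxl3a turned to 0.24 with the block, which rested on 1 residual degree of freedom.

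Gene lists of pathways and tissues were described by their medians and counts. They were chosen with earlier results of these data known, so their shares are no independent support. Over all tested genes the median joint change was -0.02 with 9922 of 20562 above 0. Among ribosomal protein genes 67 of 79 were above 0, with a median of 0.22 (0.05 in glucose and 0.36 in salt). Of the 79, 8 lay above control in every treated library (10.1%, against 3.02% of all genes) and none below. The level of the list, the median over its members of log2 CPM minus the gene's mean, overlapped between the groups: it was 0.05, -0.09 and -0.06 in glucose, 0.02 and 0.48 in salt, and 0.20, -0.34 and -0.24 in control 1m, 2f and 2m. Neuronal genes had 43 of 50 above 0 and a median of 0.49 (0.41 in glucose and 0.50 in salt). Above control throughout were 2 of the 50 (4%, near the 3.02% of all genes), the tubulin gene tubb5 and dpysl5a, which guides axon growth. Neuropeptide and hypothalamic genes had 12 of 16 above 0 and a median of 0.48, and fibroblast matrix genes 28 of 34 and a median of 0.38. With the block, dpysl5a and gad2, the gene of a GABA-making enzyme, rose among the neuronal genes, and tnc (tenascin C) and a col6a3 copy among those of the matrix. They were 2 of 50 and 2 of 34, where 0.695% of all genes were called higher. The values of gad2 and of this col6a3 copy overlapped between treated and control libraries. For the neuronal, neuropeptide and matrix lists control 1m had the lowest median level of the 8 libraries and salt 2m the highest. Their part in these medians was not tested apart from the fits without them, whose list medians are not given here.

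In the other direction, 9 of 33 genes of glutathione handling and the NRF2 response were above 0 (median -0.45, with -0.45 in glucose and -0.19 in salt). Control 1m stood apart here, since the level of the list was 0.60, -0.03 and 0.06 in control 1m, 2f and 2m. It was -0.42, -0.17 and -0.16 in glucose, and -0.09 and 0.17 in salt. The part of control 1m in the median was not tested apart from the fits without it, whose list medians are not given here. The glutathione peroxidase gene gpx1a lay above control in every treated library (0.91 ± 0.32, not called). Of the 33 genes, 5 lay below control in every treated library (15.2%, against 3.28% of all genes), among them the ferritin heavy chain gene fth1a, the lipid peroxide reductase gene gpx4b, gsto2 and nfe2l2b. The ferritin gene was at 852.5, 891.5 and 894.0 CPM in glucose, 1111 and 863.9 CPM in salt, and 2453, 1586 and 1637 CPM in controls (-1.02 ± 0.19, adjusted p = 0.0831; 0.0304 with the block). The NRF2 family factor gene nfe2l2b was at 10.4, 16.2 and 18.6 CPM in glucose, 9.92 and 7.92 CPM in salt, and 48.3, 29.8 and 25.2 CPM in controls (-1.57 ± 0.26, adjusted p = 0.0682; 0.0237 with the block). Mitochondrially encoded genes had 1 of 13 above 0 and a median of -0.44. Of the 13, mt-cyb and mt-nd5 lay below control throughout (15.4%, against 3.28% of all genes). Salt 2m was lowest of the 8 libraries in the level of the list. Cytochrome P450 and conjugation genes held 5 of 36 below control throughout (13.9%, against 3.28% of all genes) and 2 above (5.56%, against 3.02%). With the block, 3 were called lower (1.37% of all genes were). These were abcg2a, abcg2b and sult1st4, a pair of efflux transporter genes and a sulfotransferase gene. The third copy abcg2c was among those above control throughout (0.28 ± 0.17, not called). The values of sult1st4 overlapped between the groups, with a change of -0.32 ± 0.31 in glucose and -2.37 ± 0.39 in salt.

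Osmolyte genes had 10 of 14 above 0. Of the 14, 1 was called higher (slc38a2; 0.0195% of all genes were), 4 were with the block (0.695%), and 3 lay above control throughout (slc38a4, cdo1 and slc6a13; 21.4%, against 3.02%). The amino acid transporter gene slc38a4 was at 51.8, 59.0 and 57.0 CPM in glucose, 224.4 and 605.8 CPM in salt, and 24.3, 44.3 and 44.0 CPM in controls (2.02 ± 0.34, adjusted p = 0.0653; 0.00388 with the block). In the taurine synthesis gene cdo1 the glucose libraries also stood above control, at 65.2, 64.4 and 59.0 CPM, with 87.2 and 101 CPM in salt and 56.4, 43.9 and 50.6 CPM in controls (0.61 ± 0.15, not called). Several lists with a joint median away from 0 had treatments that went opposite ways. The median was -0.34 in glucose and 0.78 in salt for sterol synthesis, -0.20 and 1.08 for AP-1 and immediate early genes, and 1.097 and -0.49 for lens genes. The 2 salt libraries were unlike. For sterol synthesis the level of the list was 0.14 in salt 1m and 1.11 in salt 2m, with 0.06 in control 1m. For AP-1 and immediate early genes it was 0.07 in salt 1m and 1.24 in salt 2m. Within every group the median level of the lens genes was highest in the 2m library and lowest in the 1m library. Heat shock protein and unfolded protein response genes had medians of 0.02 and -0.04, each with glucose below 0 and salt above it.

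**Figure D4:**
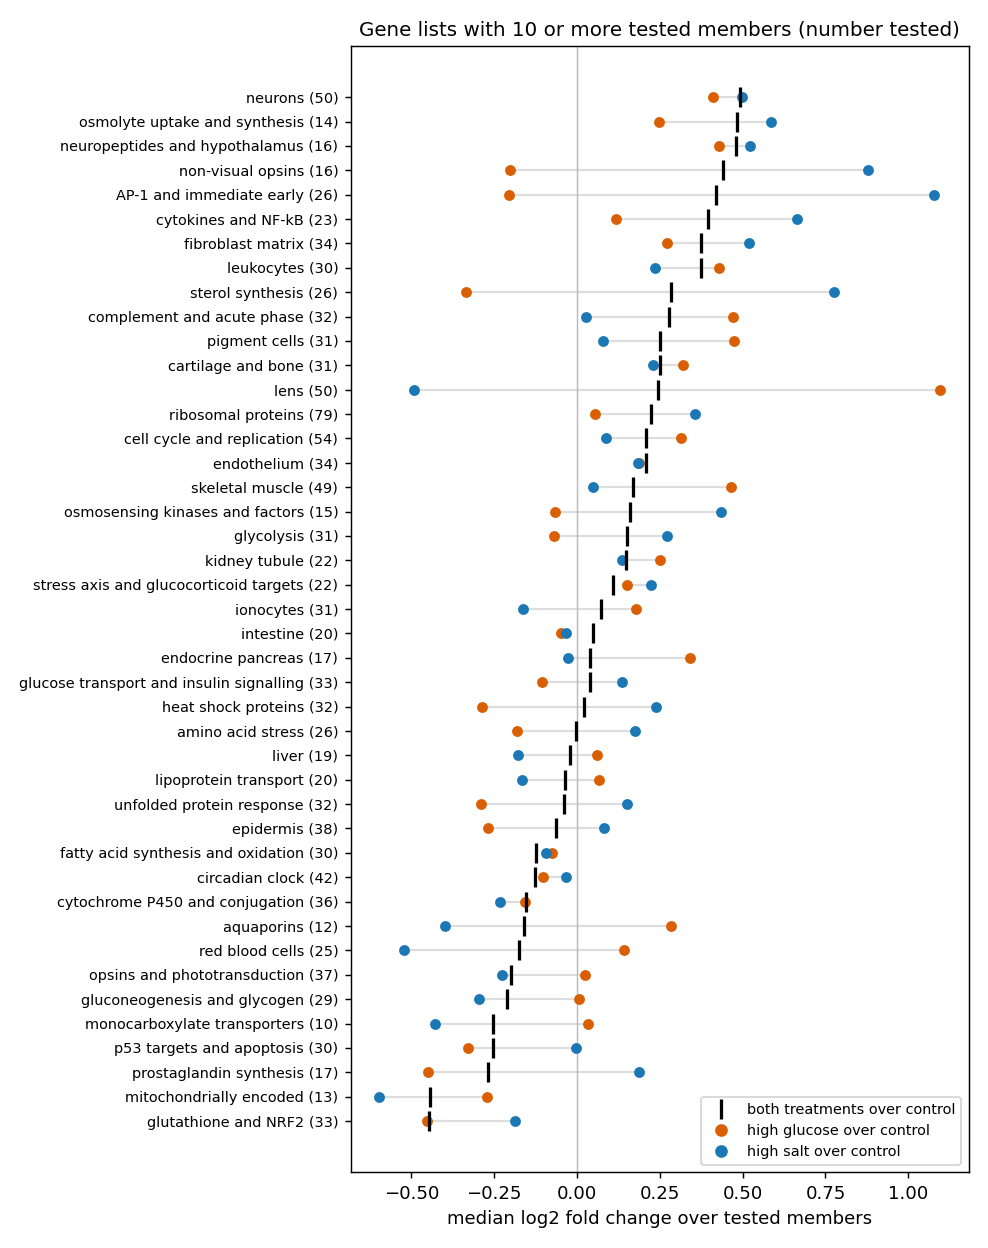
Median log2 fold change over the tested members of each gene list with at least 10 of them, for both treatments together (black bar), high glucose (orange) and high salt (blue) over control. The number of tested members stands in brackets. The points for glucose and salt lie close together for neurons (0.41 and 0.50) and far apart for lens genes (1.097 and -0.49). Both treatments share the same controls, so close points are no separate support for a common change. For neurons the level of the list was -0.90, 0.06 and 0.04 in control 1m, 2f and 2m. It ran from -0.34 to 0.71 in treated libraries. The part of control 1m in the neuron medians was not tested apart from the fits without it.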

How the data were processed

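RNA from whole zebrafish embryos was measured in 8 libraries: high glucose (n = 3), high salt (n = 2) and control (n = 3). The authors deposited 1 table of raw counts, whole numbers of reads for each of 31953 genes, of which 4932 had no count. Per the submitters' processing notes, the build was GRCz11 and the tools included featureCounts 1.5.0-p3, HISAT2 2.0.5, StringTie 1.3.3b, edgeR 3.22.5 and DESeq2. The sources used here do not give their order or settings, including strand and shared reads. The extraction protocol of the labels describes an Illumina array, whereas the values are whole-number counts, and they were treated as such. Columns were matched to groups by name. Clone-style names (1383) were replaced through a name table that held 26121 of the identifiers. Between libraries of a group, chi-square per degree of freedom was 14.4 to 74.2, so none was a duplicate.

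Genes were tested with edgeR 4.0.16 in R 4.3.3 (glmQLFit and glmQLFTest on the deposited counts, TMM scaling, filterByExpr by group, 20562 genes, 1 fit of all 3 groups, 5 residual degrees of freedom, Benjamini-Hochberg over all genes at 0.05). The contrast was the mean of both treatments minus control. Standard errors came from the log2 fold change and its F statistic. Library pairs with the same suffix tended to deviate together: correlations of their deviations from the group means were 0.142 to 0.526 in 7 same-suffix pairs and -0.528 to 0.208 in 14 others (18419 genes). Deviations cancel within a group, so the pairs are not independent, and each value of salt 2m is that of salt 1m with its sign turned. The only 2f pair (control and glucose, 0.142) lay below control 2f with salt 2m (0.208) and with glucose 2m (0.176). A 2f level of its own thus had little ground. On the ground of these correlations the suffix was also used as a replicate block (3 residual degrees of freedom). It comes from the column names, and its meaning is not stated.

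Named genes were calls that had an ordinary symbol, averaged at least 1 CPM and did not overlap between treated and control libraries (up to 12 a side by the smaller treatment change), up to 4 called members of each of 49 lists, and 8 fixed genes. The remaining calls were named as well, after their values were seen, as were family members, neighbours, the 10 widest gaps a side and the genes from the blocked fit. Members and lists were chosen with earlier results of these data known. On simulated counts for 20153 genes the joint test called 22.4% of genes changed 2-fold, 78.8% of those changed 4-fold and 94.0% of those changed 8-fold. These were 15, 52 and 63 genes, and 18 unchanged genes were called as well. The simulated libraries were independent, with the same change in every treated library. They thus held no likeness by suffix, no outlying control and no difference between glucose and salt, unlike the data. Alternatives were other scalings and filters, DESeq2 1.42.0, limma voom 3.58.1, the block and leaving out libraries. Figures were drawn with matplotlib 3.10.9.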

Additional observations from a re-analysis of the deposited data

Results flagged for a closer look

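The 23 genes below were looked at again because glucose and salt differed by edgeR's quasi-likelihood test (adjusted p = 1.88e-04 to 0.0244), so that their joint value averages unlike changes. The value given is the log2 change of glucose minus salt. Genes of osmolyte uptake and salt sensing lay lower in glucose than in salt: slc6a6a by -5.75, slc5a3b by -4.93, slc38a2 by -4.37 and sgk1 by -3.15. The same held for si:ch211-153b23.3 (-5.32), slc22a16 (-3.20) and antxr1c (-1.79).

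Genes that were higher in glucose than in salt included slc16a9b (5.65) and slc16a6b (5.52) of the monocarboxylate transporter family, the O-GlcNAcase gene mgea5 (3.97), and the arrestin-domain and thioredoxin-binding genes arrdc3b (4.61), arrdc3a (2.45) and txnipa (2.08). Linker histone and chromatin genes had values of 3.99 (h1fx), 2.95 (histh1l), 2.81 (h1f0) and 3.09 (ino80e). The remaining values were 4.39 for si:rp71-36a1.3, 3.11 for hdhd3, 2.90 for ppdpfb, 2.398 for inpp4aa, 2.26 for gpcpd1 and 1.41 for hectd2.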

How the results depend on the processing

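Against 4 genes higher, 23 lower and 8 balanced, the joint contrast gave 30, 80 and 33 without a count filter, and 143, 281 and 145 with the suffix as a replicate block, in which all 27 calls held. With the block it gave 37, 53 and 29 without control 1m, 30, 73 and 40 without salt 2m, and 242, 306 and 176 without both (1 residual degree of freedom). From the 2f and 2m libraries alone it gave 1046, 1190 and 253. DESeq2 called 290 higher and 428 lower. With the 5 treated libraries pooled as 1 group, edgeR's test called 0 higher and 1 lower (1525 with an unadjusted p below 0.05). Over the fits that left out 1 library each, counts ran from 0 to 127 higher, 2 to 182 lower and 0 to 22 balanced, the high values without salt 1m and the low ones without control 2f. The cause was not tested. Non-overlapping genes numbered 1 above and 32 below at a gap of 1.5-fold, and 733 to 1346 above and 915 to 1607 below with a library left out, where fewer libraries make the rule easier to meet. With the block, loxl3a turned to 0.24 without control 1m and salt 2m. The other scalings and the stricter filter changed no count by over 1.5 times. Of 1339 gene values under alternatives, 1017 kept direction and side of the threshold, 129 newly passed and 192 lost it. Of the list medians under alternatives, 514 stayed within the SD of the list's level between libraries of a group, and 50 moved further. Depth limits genes near 3 counts, such as opn5 and LCT (1 of 2) in treated libraries.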
